A study of Mus musculus with 51 samples.

Results

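Unstimulated control Myc-CaP cells in culture were compared with control tumors grown from the same line, in 4 libraries of cells and 12 libraries of tumors. These 16 libraries were taken out of 51 of bulk RNA-seq in the series. They were the Myc-CaP arms without interferon, without TAK-243 and without a change of Uba1, the gene the study was about. TAK-243 is a selective inhibitor of the enzyme UBA1. The labels give prostate tumor as source and tissue for the cultured cells too. Cells and tumors were therefore told apart by the R or T in the sample titles and by the study's methods. Myc-CaP is a prostate cancer line from an FVB mouse that carried a human MYC transgene, and every library of the 5 groups was labelled WT and epithelial. The cells were 2 libraries of Myc-CaP cells labelled Control, called untreated here, and 2 libraries of NC cells, the control line of the sgUba1 experiment, labelled with PBS as their treatment. The label Control does not say whether a solvent was given, and the study used DMSO as the control of TAK-243 in other assays of Myc-CaP cells. The tumors were 3 EV tumors from cells with an empty vector that carries blasticidin resistance, 3 sgNC tumors from cells with a non-targeting guide RNA, and 6 vehicle tumors from mice given the solvent of intravenous TAK-243. The study's methods describe guide-carrying Myc-CaP cells as clones, so the sgNC and NC groups may each stand for 1 clone. Tumors were grown under the skin of both flanks of male FVB mice aged 6 to 8 weeks with intact immunity, and as the labels name no mouse, some tumors of a group may share a host. Nothing in the labels says that the paired cell libraries came from separate cultures, so their spread may be technical. Each experiment held either cells or tumors, and experiment and growth site cannot be told apart.

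Total counts per library were 14839437 to 30713959 in the cells, 8651963 to 9138573 in the EV tumors, 10668594 to 12552766 in the sgNC tumors and 26892692 to 35046975 in the vehicle tumors. Multidimensional scaling placed the cells between −4.60 and −4.35 on the first axis and the tumors between 0.897 and 1.95, with no overlap. sgNC tumor 2 stood apart from the other tumors at 2.35 on the second axis, and it was the lowest tumor for the named cell cycle genes and for several genes that were undetected in culture. Levels are given in CPM, which are counts scaled to library size with TMM factors and compare a gene between libraries. Where genes are compared with each other they are given in TPM, which are scaled for gene length as well. A gene was called when its adjusted p was under 0.05 in edgeR's quasi-likelihood test (Benjamini-Hochberg method over all genes tested), and called at 2-fold when the change was also at least 2-fold and the 12 tumors did not overlap the 4 cell libraries. Standard errors (SE) of log2 fold changes were approximated from the test's F statistic.

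A tumor grown from a cell line holds, beside the injected cells, host fibroblasts that lay down collagen, pericytes and endothelial cells that build vessels, and leukocytes that enter from the blood. Cells on plastic grow with serum, oxygen and nutrients in excess, whereas a solid tumor has gradients of all of these and is exposed to cytokines such as interferons. Prostate luminal cells depend on androgen, which induces genes such as Fkbp5, and in Myc-driven prostate cancer the MYC transcription factor drives ribosome production and cell division.

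Of 40077 genes in the table, 17046 were tested. Higher levels in tumors were called for 6988 genes (41.0% of those tested) and lower levels for 5113 (30.0%). At 2-fold without overlap, 3114 genes (18.3%) were higher and 1090 (6.39%) lower. The median log2 fold change of all genes tested was 0.19, which is the level against which the medians of gene lists below are read. Counts of list members called are likewise read against the 41.0% of all genes higher and 30.0% lower. Counts at 2-fold without overlap are read against 18.3% and 6.39%. Called or not, 4323 of the genes tested had every tumor above every cell library, and 3638 had every tumor below. Statements below that tumors and cells did not overlap are read against these numbers. The direction of small changes depended on the scaling. When libraries were scaled to the summed counts of the epithelial and luminal list, the median of all genes moved by −0.87 and 22.2% of calls were higher in tumors, against 57.7% with TMM. This scaling sets the list's sum equal in all libraries. With TMM the sum was 752 to 1057 CPM in the cells and 1175 to 2298 CPM in the tumors. On log2(TPM + 1) and log2(TPM + 0.1) the share was 74.9% and 75.3% as the median moved by 0.11 and 0.28. Without a filter on low counts the median moved by 0.30. Without sgNC tumor 2 and without vehicle tumors 3 and 6, in which muscle RNA was highest, 6497 genes were higher and 5055 lower, a choice made after the data were seen.

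**Figure D1:**
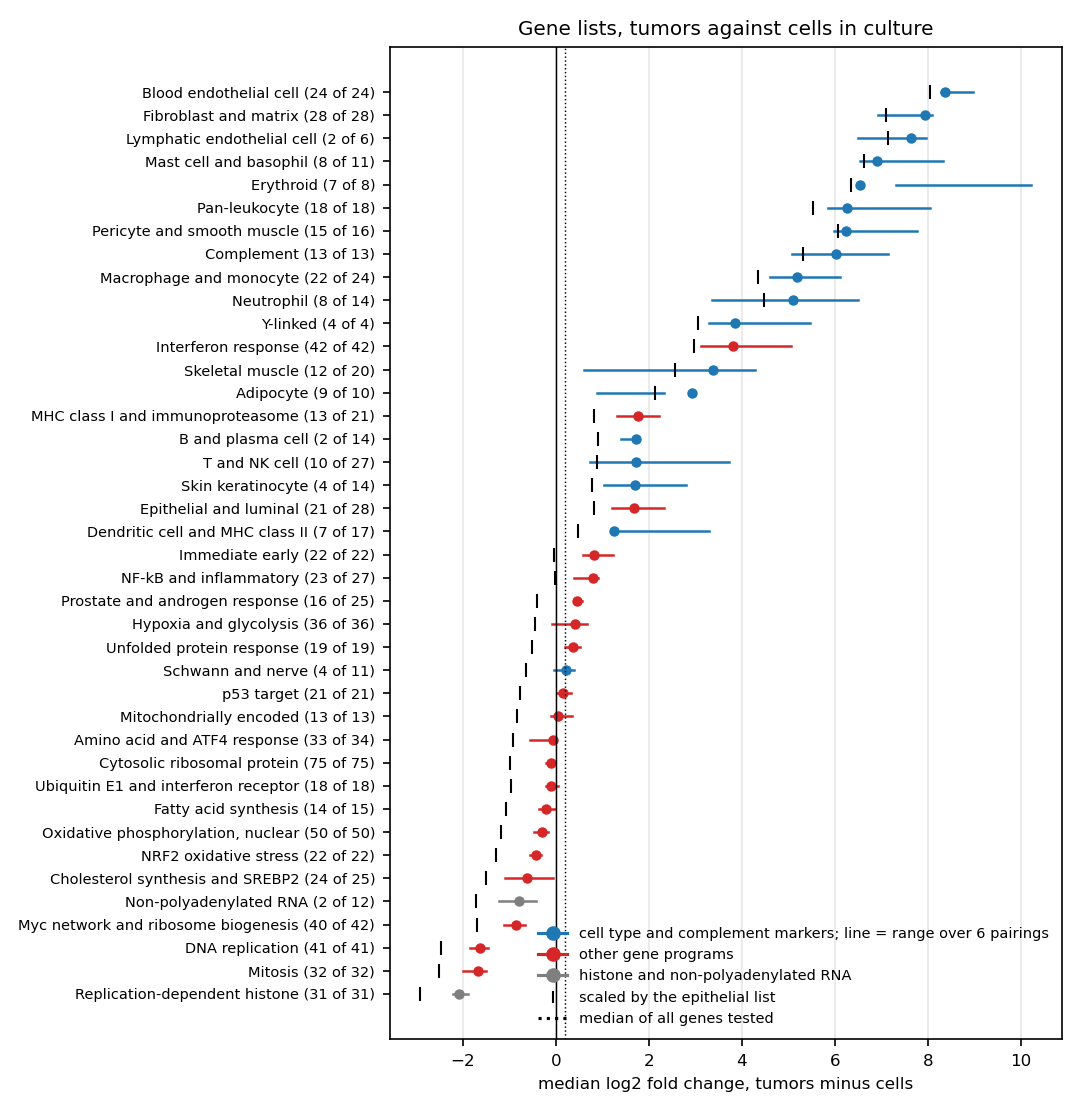
Median log2 fold change (tumors minus cells, x axis) of 40 gene lists, with the number of members tested of the number on the list in brackets. Points are the fit of all 16 libraries, lines the range over 6 pairings of a tumor group with a cell group, in each of which the tested members can differ, and ticks the same medians after scaling by the epithelial list. Marker lists of stromal and blood cells lie to the right, the cell cycle and histone lists to the left of the median of all genes tested, and 8 lists near 0 (prostate and androgen response, hypoxia, unfolded protein response, immediate early, NF-kB, p53, mitochondrially encoded and Schwann) change sign under the epithelial scaling.

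Genes of stroma, vessels and blood were prominent among the increases. Genes under 0.1 CPM in every cell library, 21606 in all, made up 0.405% to 0.908% of TPM in the 12 tumors (0.7 ± 0.131%, SD, n = 12) and 0.0156% to 0.0207% in the cells, where the choice of genes makes it low. The share was 0.739% to 0.908% in the EV tumors, 0.606% to 0.821% in the sgNC tumors and 0.405% to 0.771% in the vehicle tumors, so that the groups overlapped. With only the 19119 genes at 0 counts in all cell libraries, the median share was 0.493%. In bulk RNA, fewer cells of a type and less RNA per cell cannot be told apart, and these values do not give a share of cells.

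Fibrillar collagens of fibroblasts were among the largest increases. Of 28 fibroblast and matrix genes, 25 were higher in tumors, against 41.0% of all genes tested, and 3 lower, with a median log2 fold change of 7.93, or 5.67 with its members at 0 counts in culture set at their lower bounds. Members at 0 in culture passed the filter on low counts through the tumors, so counts and medians of marker lists describe the members tested and no more. Col1a2, a chain of type I collagen (ENSMUSG00000029661.16, chromosome 6, 4504814 to 4541544 of GRCm38), had 0 CPM in all 4 cell libraries and 148 to 439.7 CPM (median 244) in the tumors. Every tumor was above every cell library, with vehicle tumor 4 lowest and EV tumor 3 highest, and the mean was at least 6423-fold higher, adjusted p = 3.13e-10, against the 0.0387 CPM that 3 counts over the 4 cell libraries would give. Type III collagen Col3a1 (123 to 411 CPM) and type V collagen Col5a2 (48.2 to 153 CPM) were also at 0 counts in culture and stood at least 6301-fold and 2180-fold higher. The second chain of type I collagen, Col1a1, did have counts in culture. It had 1.4 and 1.14 CPM in the untreated cells, 1.87 and 1.22 CPM in the NC cells and 189.8 to 606 CPM (median 317) in the tumors (log2 fold change 7.9, SE 0.413, adjusted p = 8.16e-11). Tenascin C, a matrix glycoprotein of wounds and tumor stroma encoded by Tnc, had 0 CPM in all 4 cell libraries and 33 to 96 CPM (median 58.7) in the tumors (at least 1543-fold higher, adjusted p = 8.39e-10). Decorin (Dcn), a small proteoglycan of connective tissue, was at 3.55 to 15.4 CPM in the tumors (at least 177-fold higher, adjusted p = 2.00e-07).

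Several fibroblast markers were already expressed by the cultured cells. Fibronectin (Fn1), a matrix glycoprotein, had 2771 and 2713 CPM in the untreated cells, 2331 and 2676 CPM in the NC cells and 3013 to 7813 CPM (median 3902) in the tumors (log2 fold change 0.8, SE 0.25, adjusted p = 0.00876). Osteonectin (Sparc) had 169.9 and 171 CPM in the untreated cells, 209.5 and 228 CPM in the NC cells and 219 to 416 CPM (median 284) in the tumors (log2 fold change 0.62, SE 0.147, adjusted p = 0.00116). The growth factor receptor gene Pdgfra had 24.6 and 26.9 CPM in the untreated cells, 16.1 and 17.4 CPM in the NC cells and 20.4 to 50.9 CPM (median 35.5) in the tumors (log2 fold change 0.77, SE 0.209, adjusted p = 0.00327). These 3 increases turned to −0.1, −0.26 and −0.17 under the epithelial scaling. The call of Fn1 was lost when either cell group was left out, that of Sparc without the untreated cells and that of Pdgfra without the NC cells. Timp1, an inhibitor of matrix proteases, fell from 42.8 to 64.7 CPM in culture to 11.1 to 78.9 CPM (log2 fold change −1.23, SE 0.39, adjusted p = 0.00946), with sgNC tumor 2 (78.9 CPM) above all cells, and its call was lost without the NC cells. Twist2, a transcription factor of mesenchymal cells, had 30.2 and 32.6 CPM in the untreated cells, 24.5 and 25.4 CPM in the NC cells and 5.89 to 21.6 CPM (median 13.7) in the tumors (log2 fold change −1.0, SE 0.266, adjusted p = 0.00277), without overlap, and its call was lost without the untreated cells. For fibulin 1 (Fbln1) the cell groups differed, at 3.82 and 3.43 CPM in the untreated cells, 16 and 16 CPM in the NC cells and its change of −1.36 turned to 0.099 without the NC cells.

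Vessel genes were higher without exception. All 24 blood endothelial genes were higher in tumors, all at 2-fold without overlap, against 18.3% of all genes. The list median was 8.37, or 7.05 with its members at 0 counts in culture set at their lower bounds. Their sum was 4.33 to 6.57 CPM in the 4 cell libraries and 208 to 379.7 CPM (median 297) in the 12 tumors. VE-cadherin (Cdh5), the junction protein of endothelium (ENSMUSG00000031871.9, chromosome 8, 104101625 to 104144511), had 0 CPM in all 4 cell libraries and 27.4 to 48.5 CPM (median 37.3) in the tumors (at least 961-fold higher, adjusted p = 2.10e-11). Kdr, the main VEGF receptor, ranged from 17.7 to 36.2 CPM (at least 629-fold higher, adjusted p = 2.30e-11), also from 0 counts in culture. Pecam1, a surface protein of endothelium and some leukocytes, had 0.0734 and 0.0714 CPM in the untreated cells, 0 and 0.228 CPM in the NC cells and 20.0 to 42.9 CPM (median 27.3) in the tumors (log2 fold change 8.03, SE 0.395, adjusted p = 4.01e-11). The angiopoietin receptor Tek had 1 count over the cell libraries and 1.29 to 5.85 CPM (median 2.13) in the tumors (adjusted p = 1.61e-07). For each of them the lowest tumor was above the highest cell library. All 15 tested genes of the pericyte and smooth muscle list were higher as well (median 6.25, or 5.55 with its members at 0 counts in culture set at their lower bounds), at a sum of 28.6 to 47.6 CPM in the 4 cell libraries and 233 to 392 CPM (median 305) in the 12 tumors. Rgs5, a marker of pericytes, had 0.147 and 0.0714 CPM in the untreated cells, 0.128 and 0.076 CPM in the NC cells and 25.7 to 56.6 CPM (median 34) in the tumors (log2 fold change 8.31, SE 0.322, adjusted p = 6.31e-12). Smooth muscle actin (Acta2) was at 0 counts in every cell library and 12.4 to 29.5 CPM in the tumors (at least 539.5-fold higher, adjusted p = 4.87e-10). The PDGF receptor Pdgfrb likewise rose from 0 counts to 15.2 to 38 CPM (at least 602-fold higher, adjusted p = 1.10e-09). Myh11, the heavy chain of smooth muscle myosin, was at 0 to 0.212 CPM in culture and 2.14 to 5.95 CPM (median 4.44) in the tumors (log2 fold change 5.47, SE 0.469, adjusted p = 1.65e-08). sgNC tumor 2 had the highest value for Cdh5, Kdr, Pecam1, Tek, Rgs5 and Myh11.

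Of 6 lymphatic endothelial genes only Lyve1 and Flt4 passed the filter on low counts. Lyve1, a hyaluronan receptor also found on some macrophages, had 0 CPM in all 4 cell libraries and 0.0808 to 8.31 CPM (median 1.93) in the tumors, from 0.0808 CPM in sgNC tumor 1 to 8.31 CPM in sgNC tumor 2 (at least 65.8-fold higher, adjusted p = 1.35e-04). Its call was lost for the sgNC tumors with either cell group alone. Flt4, a VEGF receptor of lymphatic and angiogenic endothelium, had 0 to 0.114 CPM in culture and 4.5 to 8.74 CPM (median 6.41) in the tumors (log2 fold change 6.54, SE 0.359, adjusted p = 1.35e-10). Prox1, the transcription factor that defines lymphatic endothelium, was at or near 0 throughout, at most 0.189 CPM.

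**Figure D2:**
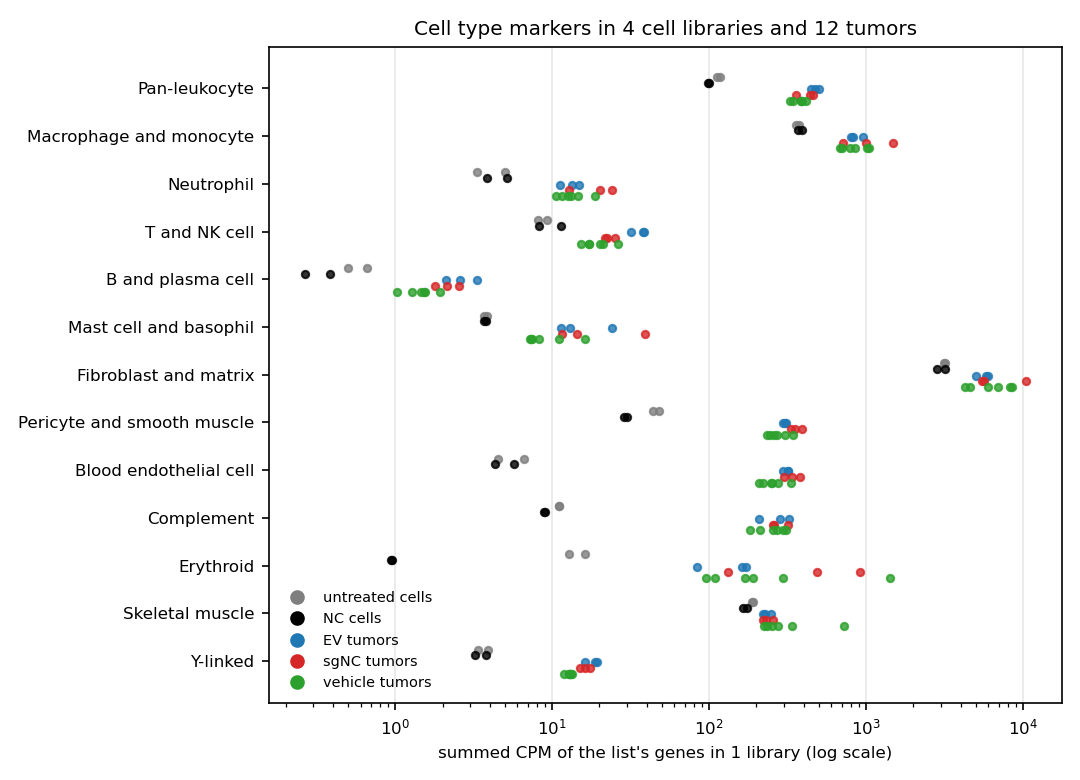
Summed CPM of 13 marker lists (x axis, log scale) in each of the 4 cell libraries and 12 tumors, colored by group. None of the 13 sums overlaps between cells and tumors. The macrophage sum is already 359 to 389.8 CPM in culture, and single vehicle tumors lead the erythroid (1423 CPM) and skeletal muscle (725.7 CPM) sums.

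Leukocyte genes were higher in tumors, and those of macrophages were measured best. All 18 pan-leukocyte genes were higher in tumors (median 6.26), against 41.0% of all genes. Of 22 tested macrophage and monocyte genes 19 were higher and 0 lower (median 5.18). Ptprc, which encodes CD45 on all nucleated blood cells, had 0 CPM in all 4 cell libraries and 6.88 to 22.2 CPM (median 11.1) in the tumors (at least 331-fold higher, adjusted p = 6.70e-09). It was 14.4, 22.2 and 21.4 CPM in the EV tumors, 11.3, 15.4 and 12.3 CPM in the sgNC tumors and 6.88 to 11 CPM in the vehicle tumors, which were thus below the other tumors. Laptm5, a lysosomal membrane protein of blood cells, ranged from 10.03 to 23.2 CPM in the tumors, from 0 counts in culture (at least 468-fold higher, adjusted p = 1.29e-10). Lyz2, the lysozyme of macrophages and neutrophils, was among the largest increases, with 0 CPM in all 4 cell libraries and 78 to 161 CPM (median 109) in the tumors (at least 2944-fold higher, adjusted p = 2.74e-11). By length-scaled level it was the most abundant of the named leukocyte genes that were undetected in culture, at a median of 157 TPM in tumors. The macrophage surface receptor Adgre1 (F4/80) had 0 CPM in all 4 cell libraries and 5.82 to 19.9 CPM (median 9.96) in the tumors (at least 286-fold higher, adjusted p = 7.42e-09). C1qa, a chain of complement C1q made by macrophages, had 1 count in culture and 18.8 to 52.4 CPM (median 31.2) in the tumors (adjusted p = 1.10e-10). Csf1r, the receptor on which macrophages depend, had 0.441 and 0.429 CPM in the untreated cells, 1.06 and 0.646 CPM in the NC cells and 15.8 to 58.7 CPM (median 22.6) in the tumors (log2 fold change 5.3, SE 0.432, adjusted p = 8.95e-09), highest in sgNC tumor 2.

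Other genes of the macrophage list had counts in culture. Cd68, a lysosomal glycoprotein, had 1.32 and 2.07 CPM in the untreated cells, 2.59 and 3.65 CPM in the NC cells and 11 to 22.6 CPM (median 14.7) in the tumors (log2 fold change 2.65, adjusted p = 7.01e-08). Apolipoprotein E (Apoe) had 9.91 to 14.8 CPM in culture and 71.1 to 298 CPM (median 159) in the tumors (log2 fold change 3.85, adjusted p = 2.09e-08). Arginase 1 (Arg1), which marks one state of tumor macrophages, stood at 23.4 and 27 CPM in the untreated cells, 12.4 and 14.8 CPM in the NC cells and 42 to 234 CPM (median 69.8) in the tumors (log2 fold change 2.41, SE 0.515, adjusted p = 4.50e-04). The highest tumor was sgNC tumor 2, and no tumor overlapped the cells. The call was lost for the sgNC tumors with untreated cells alone. The summed level of the macrophage list, 359 to 389.8 CPM in the 4 cell libraries and 679.5 to 1490 CPM (median 838) in the 12 tumors, was thus well above 0 in culture, whereas the pan-leukocyte sum was 97.6 to 117 CPM in the 4 cell libraries and 327 to 504 CPM (median 402) in the 12 tumors.

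Fewer markers of other leukocytes passed the filter. All 8 tested of 14 neutrophil genes were higher in tumors, at a sum of 3.31 to 5.14 CPM in the 4 cell libraries and 10.5 to 24.1 CPM (median 13.3) in the 12 tumors. Csf3r, the G-CSF receptor, had 0.418 to 1.06 CPM in culture and 1.72 to 6.7 CPM (median 2.56) in the tumors (log2 fold change 2.06, SE 0.377, adjusted p = 1.02e-04). The calgranulin gene S100a9 had 0 CPM in all 4 cell libraries and 0 to 1.9 CPM (median 0.218) in the tumors (adjusted p = 0.00584), a call lost without the NC cells. Of 17 genes of dendritic cells and MHC class II 7 were tested and 6 were higher. The median of 1.26 was 1.93 to 2.28 without either NC library or any 1 vehicle tumor. Cd74, the invariant chain that escorts MHC class II, had 0 CPM in all 4 cell libraries and 11.3 to 148 CPM (median 36.5) in the tumors (at least 1327-fold higher, adjusted p = 1.18e-05). Its EV tumors had 60.3, 121 and 148 CPM, and the tumor values ran from 11.3 CPM in vehicle tumor 6 to 148 CPM in EV tumor 3. Of 27 T and NK cell genes 10 were tested and 6 of these were higher (median 1.72), against 41.0% of all genes. Cd8a, the co-receptor of cytotoxic T cells, had 2.35 and 2.29 CPM in the untreated cells, 2.04 and 2.35 CPM in the NC cells and 2.46 to 13.2 CPM (median 5.1) in the tumors (log2 fold change 1.36, SE 0.397, adjusted p = 0.00548). The EV tumors were highest at 13.2, 7.76 and 10.2 CPM and the sgNC tumors were close to culture at 3.23, 2.46 and 2.89 CPM, and the call was lost under the epithelial scaling and without the NC cells. Cd4, the co-receptor of helper T cells, had 0 to 0.085 CPM in culture and 0.247 to 2.25 CPM (median 0.659) in the tumors (log2 fold change 3.48, SE 0.796, adjusted p = 8.31e-04). Cd3e, a chain of the T cell receptor complex, reached 1.77 CPM in EV tumor 2 but was 0 in sgNC tumors 2 and 3, and did not pass the test (log2 fold change 2.08, adjusted p = 0.0864). The granzyme gene Gzmb was at most 0.727 CPM and the interferon gamma gene Ifng at most 0.197 CPM, both below the filter, so differences in them were not tested.

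Among B and plasma cell genes 2 of 14 passed the filter, one of them Cd79a, part of the B cell receptor, at 0.0714 to 0.128 CPM in culture and 0.258 to 1.32 CPM (median 0.442) in the tumors (log2 fold change 2.08, SE 0.493, adjusted p = 0.00111). Of 8 tested mast cell and basophil genes 7 were higher (median 6.91, or 4.79 with its members at 0 counts in culture set at their lower bounds). Their sum was highest in sgNC tumor 2, at 38.9 CPM against a median of 11.4 CPM over the tumors. The mast cell protease gene Cpa3 had 0 CPM in all 4 cell libraries and 0.162 to 4.91 CPM (median 0.49) in the tumors (mean at least 25.8-fold higher, adjusted p = 0.00312). The call of Cpa3 was lost for the sgNC tumors with untreated cells alone. Kit, the stem cell factor receptor, had 0 CPM in all 4 cell libraries and 2.95 to 7.63 CPM (median 4.09) in the tumors (at least 120.4-fold higher, adjusted p = 3.52e-08). The MHC class II heterodimer genes and the immunoglobulin and T cell receptor constant genes on these lists were not analysed here.

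Complement genes rose without exception. All 13 were higher in tumors at 2-fold without overlap, against 18.3% of all genes. The list median was 6.03, or 6.02 with its members at 0 counts in culture set at their lower bounds. The sum was 8.88 to 11.1 CPM in the 4 cell libraries and 182 to 324 CPM (median 265) in the 12 tumors. C3, the central component, had 0.808 and 0.5 CPM in the untreated cells, 0.128 and 0.266 CPM in the NC cells and 7.03 to 55.2 CPM (median 21.9) in the tumors (log2 fold change 6.03, SE 0.666, adjusted p = 3.33e-07). The highest was EV tumor 3 and the lowest sgNC tumor 1. C4b of the classical pathway had 0.734 and 1.0 CPM in the untreated cells, 1.06 and 1.06 CPM in the NC cells and 21.6 to 58.5 CPM (median 32.8) in the tumors (log2 fold change 5.18, SE 0.32, adjusted p = 3.95e-10). The protease gene C1ra had 1.98 and 2.14 CPM in the untreated cells, 0.892 and 1.14 CPM in the NC cells and 6.84 to 13.1 CPM (median 9.79) in the tumors (log2 fold change 2.74, SE 0.256, adjusted p = 4.51e-08).

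Hemoglobin genes were higher in the tumors. All 7 tested erythroid genes were higher (median 6.54, or 5.91 with its members at 0 counts in culture set at their lower bounds), at 0.935 to 16.1 CPM in the 4 cell libraries and 83.2 to 1423 CPM (median 170.5) in the 12 tumors. Hbb-bs, an adult beta globin, had 1 count over the cell libraries and 25.9 to 609.9 CPM (median 57.7) in the tumors (adjusted p = 1.28e-05). Vehicle tumor 5 at 609.9 CPM and sgNC tumor 2 at 430.2 CPM were far above the rest, and the call of Hbb-bs was lost with experiment as a random block. Hba-a1, an alpha globin, had 15.3 and 10.9 CPM in the untreated cells, 0.892 and 0.912 CPM in the NC cells and 52.7 to 708 CPM (median 103) in the tumors (log2 fold change 4.82, SE 0.993, adjusted p = 3.26e-04). Skeletal muscle genes, 9 of 12 tested higher (median 3.39), were highest in vehicle tumor 6, at a sum of 164 to 189.7 CPM in the 4 cell libraries and 220 to 726 CPM (median 241) in the 12 tumors. The median was 1.36 without vehicle tumor 6 and 1.06 without sgNC tumor 2 and vehicle tumors 3 and 6. Acta1, the actin of skeletal muscle, had 0.0734 to 0.214 CPM in culture and 0.143 to 93.9 CPM (median 0.48) in the tumors, with 93.9 CPM in vehicle tumor 6, 11.5 CPM in vehicle tumor 3 and at most 0.808 CPM elsewhere (log2 fold change 6.13, SE 2.5, adjusted p = 0.0364). Creatine kinase of muscle (Ckm) had 1.25 to 1.75 CPM in culture, 28.7 CPM in vehicle tumor 6 and at most 5.55 CPM in the other tumors (log2 fold change 1.92, SE 0.698, adjusted p = 0.0206). The calls of Acta1 and Ckm were lost with limma-voom and without either untreated cell library or NC replicate 1. Of 14 keratinocyte genes 4 were tested and 2 (Trp63 and Calml3) were higher (median 1.7), against 41.0% of all genes. The basal keratins Krt5 and Krt14 were under the filter. Krt15, also a keratin of basal epithelium, was expressed in culture, with 1103 and 1083 CPM in the untreated cells, 880.3 and 918 CPM in the NC cells and 40.2 to 1218 CPM (median 373) in the tumors, and did not pass the test (log2 fold change −1.12, adjusted p = 0.109). Adipsin (Cfd), a complement protease of fat cells, had 0 CPM in all 4 cell libraries and 0 to 40.0 CPM in the tumors, at 40.0 CPM in sgNC tumor 3 and 13.3 CPM in EV tumor 2 (adjusted p = 0.00914), and its call was lost with limma-voom and without the NC cells. Of 9 tested adipocyte genes 8 were higher (median 2.94). Of 4 tested genes of Schwann cells and nerve 2 were higher (median 0.22, or −0.65 under the epithelial scaling), against 41.0% of all genes.

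Y-linked genes, which male hosts carry, were higher in tumors for all 4 genes tested (median 3.85). Eif2s3y, a translation initiation factor gene, had 0 CPM in all 4 cell libraries and 0.831 to 2.9 CPM (median 1.77) in the tumors (at least 46.9-fold higher, adjusted p = 2.02e-07). Uty had 0 to 0.114 CPM in culture and 1.67 to 3.72 CPM (median 2.41) in the tumors (log2 fold change 5.14, SE 0.405, adjusted p = 6.07e-09). The RNA helicase gene Ddx3y had 0.76 to 1.1 CPM in culture and 3.73 to 7.13 CPM in the tumors (log2 fold change 2.56, adjusted p = 1.75e-08). Kdm5d, a histone demethylase gene, had 2.04 to 3.01 CPM in culture and 3.99 to 6.8 CPM in the tumors (log2 fold change 1.03, adjusted p = 1.16e-05). The call of Kdm5d was lost under the epithelial scaling (0.15). All 4 genes have related copies on the X chromosome with which reads may be shared. The summed Y-linked level was 3.23 to 3.89 CPM in the 4 cell libraries and 11.8 to 19.3 CPM (median 14.2) in the 12 tumors.

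Some of the most abundant RNAs that appeared in tumors came from genes that are not stromal markers. Fibrinogen chains, which the liver secretes into plasma, were prominent. Fgb (ENSMUSG00000033831.5, chromosome 3, 83040141 to 83049863) had 0 CPM in all 4 cell libraries and 73.6 to 272 CPM (median 177) in the tumors (at least 4442-fold higher, adjusted p = 2.40e-09). Fgg had 0 CPM in all 4 cell libraries and 7.36 to 153 CPM (median 93) in the tumors (at least 2162-fold higher, adjusted p = 1.91e-06). Lcn11, a lipocalin (ENSMUSG00000069080.5, chromosome 2, 25777017 to 25780279), had 0 CPM in all 4 cell libraries and 1.23 to 125 CPM (median 32.7) in the tumors (at least 1055-fold higher, adjusted p = 2.36e-05). Ptgds, which makes prostaglandin D2, had 2 counts over the cell libraries and 12.9 to 372 CPM (median 153) in the tumors (adjusted p = 1.59e-07). Cyp2b10, a cytochrome P450 known from liver, also had 2 counts in culture and 6.89 to 316 CPM (median 135) in the tumors (adjusted p = 4.82e-07). These genes shared a lowest tumor. In sgNC tumor 2, Fgb was 73.6 CPM, Fgg 7.36 CPM, Lcn11 1.23 CPM, Ptgds 12.9 CPM and Cyp2b10 6.89 CPM, whereas Col3a1, Cdh5, Csf1r and Lyz2 were at their highest there. The call of Lcn11 was lost with experiment as a random block. sgNC tumor 1 was the highest for Lcn11 (125 CPM) and Ptgds (372 CPM).

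Ifitm1, an interferon-induced membrane protein gene, ranged from 7.36 to 43 CPM in the tumors (at least 626-fold higher, adjusted p = 8.74e-07), again lowest in sgNC tumor 2. Igfbp3, a binding protein of insulin-like growth factors, had 0 CPM in all 4 cell libraries and 82.1 to 173 CPM (median 105) in the tumors (at least 2988-fold higher, adjusted p = 2.10e-11). H19, an imprinted long noncoding RNA of fetal tissue and muscle, had 0 CPM in all 4 cell libraries and 6.42 to 183 CPM (median 37) in the tumors (at least 1526-fold higher, adjusted p = 2.97e-05). Vehicle tumors 4 and 3 had 183 and 118 CPM and EV tumor 3 had 153 CPM, above all other tumors. The gene with the highest median TPM in tumors among those under 0.1 CPM in every cell library was Gm17416, an unnamed gene model, at 735 TPM. It was followed by Ptgds at 412 TPM and Hbb-bs at 224 TPM, then Lyz2 at 157 TPM. Cyp2b10, Lcn11, Ifitm1 and Fgg lay between 99.9 and 126 TPM, and Fgb and Igfbp3 were at 76 and 74.8 TPM.

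**Figure D3:**
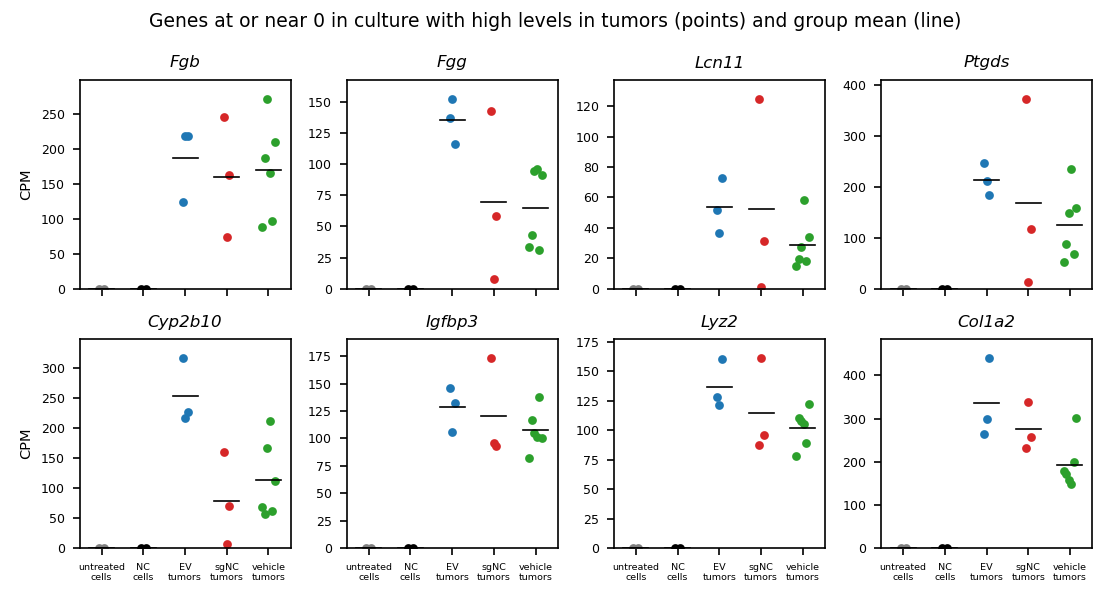
CPM (y axis) of 8 genes at or near 0 in culture, with 1 point per library and a line at each group's mean. In sgNC tumors the points for Lcn11, Ptgds, Fgg and Cyp2b10 spread from near 0 (sgNC tumor 2) upward, while Lyz2, Igfbp3 and Col1a2 have no tumor near 0.

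Markers of the labelled cell type, epithelial, were uneven. Epcam, an adhesion protein of epithelia, had 0 counts in culture and at most 0.111 CPM in the tumors. E-cadherin (Cdh1) had 0.0734 and 0.0714 CPM in the untreated cells, 0.255 and 0.152 CPM in the NC cells and 0.228 to 1.5 CPM in the tumors (log2 fold change 1.93, SE 0.463, adjusted p = 0.00121). By contrast Krt7, a keratin of simple epithelium, had 160.5 and 166 CPM in the untreated cells, 101 and 100.2 CPM in the NC cells and 165 to 612 CPM (median 329.5) in the tumors (log2 fold change 1.47, SE 0.281, adjusted p = 1.57e-04), with vehicle tumor 1 inside the range of the cells. The call of Krt7 was lost under scaling by the epithelial list (0.51), of which it is also a part. The luminal keratin Krt8 had 4.7 and 3.71 CPM in the untreated cells, 3.99 and 3.53 CPM in the NC cells and 29.2 to 308 CPM (median 43.7) in the tumors (log2 fold change 4.24, SE 0.703, adjusted p = 3.58e-05). sgNC tumor 2 was highest at 308 CPM, and vehicle tumors 2 and 6 followed at 111 and 110.4 CPM. Claudin 3 (Cldn3), a tight junction protein, had 76.5 to 96 CPM in culture and 72 to 177 CPM (median 143) in the tumors (log2 fold change 0.76, adjusted p = 6.40e-04), an increase that turned to −0.11 when libraries were scaled by the epithelial list of which it is a part. Of 21 tested epithelial and luminal genes 15 were higher and 1 lower, against 41.0% and 30.0% of all genes. The list median was 1.68, and every pairing of a tumor group with a cell group gave a median of at least 1.2.

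The androgen-responsive genes Fkbp5, Steap4 and Ndrg1 were higher in the tumors, although the change of Fkbp5 turned under the epithelial scaling. Fkbp5, a chaperone gene induced by androgen, had 544 and 543 CPM in the untreated cells, 494 and 464 CPM in the NC cells and 534 to 1110 CPM (median 891) in the tumors (log2 fold change 0.74, SE 0.166, adjusted p = 7.08e-04), with sgNC tumor 2 (534 CPM) inside the range of the cells, and its change was −0.13 under the epithelial scaling. Steap4, a metalloreductase gene that responds to androgen, had 5.07 and 6.5 CPM in the untreated cells, 0.255 and 0.266 CPM in the NC cells and 72.2 to 207 CPM (median 126) in the tumors (log2 fold change 5.61, SE 0.65, adjusted p = 5.99e-07). Ndrg1, induced by androgen and by hypoxia, had 0 CPM in all 4 cell libraries and 6.33 to 18.4 CPM (median 9.23) in the tumors (at least 254-fold higher, adjusted p = 3.98e-09). Other genes of differentiated prostate were at or near 0. The probasin gene Pbsn had 0 counts in all 16 libraries, and Tmprss2 was at most 0.131 CPM. Of 16 tested genes on the prostate and androgen response list 8 were higher and 3 lower, against 41.0% and 30.0% of all genes. The list median of 0.45 turned to −0.4 under the epithelial scaling.

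Cell cycle genes fell as a block. All 32 mitosis genes and all 41 DNA replication genes were lower in tumors, against 30.0% of all genes, with medians of −1.67 and −1.62. At 2-fold without overlap 32 and 38 of them were lower, against 6.39%. Mki67, the gene of the Ki-67 antigen, had 928 and 914 CPM in the untreated cells, 1934 and 2326 CPM in the NC cells and 249 to 662 CPM (median 522) in the tumors (log2 fold change −1.55, SE 0.221, adjusted p = 6.83e-06). The cell groups differed from each other by more than the untreated cells differed from the highest tumors, and the call was lost for the sgNC tumors against the untreated cells alone. Cyclin B1 (Ccnb1), the partner of CDK1 at entry into mitosis, had 298 and 306 CPM in the untreated cells, 294 and 248 CPM in the NC cells and 26.3 to 91.3 CPM (median 65.2) in the tumors (log2 fold change −2.14, SE 0.172, adjusted p = 7.76e-09). The mitotic kinase gene Plk1 had 157 to 260 CPM in culture and 18.5 to 59.8 CPM in the tumors (log2 fold change −2.16, adjusted p = 1.55e-08). Cdk1, the kinase that starts mitosis, had 168 to 206 CPM in culture and 27.2 to 74.5 CPM in the tumors (log2 fold change −1.68, adjusted p = 2.29e-08). Top2a, a topoisomerase that separates chromosomes, had 1002 to 1187 CPM in culture and 152 to 428 CPM in the tumors (log2 fold change −1.69, adjusted p = 6.77e-08). In each of these genes every tumor was below every cell library. Mcm2, part of the replicative helicase, had 343 and 325 CPM in the untreated cells, 361 and 391 CPM in the NC cells and 51.6 to 114 CPM (median 95.3) in the tumors (log2 fold change −1.96, SE 0.13, adjusted p = 8.96e-10). Pcna, the sliding clamp of DNA polymerase, had 325 to 395 CPM in culture and 59.3 to 116 CPM (median 91) in the tumors (log2 fold change −1.95, adjusted p = 8.13e-10). Rrm2, which supplies deoxynucleotides, fell from 669.6 to 759 CPM to 67.2 to 227 CPM (log2 fold change −2.23, adjusted p = 1.01e-08). For all of these genes sgNC tumor 2 was the lowest tumor, at 26.3 CPM for Ccnb1 and 51.6 CPM for Mcm2. Without sgNC tumor 2 and vehicle tumors 3 and 6 the medians were −1.59 and −1.53. Across 6 pairings of a tumor group with a cell group the mitosis median ran from −2.0 to −1.51 and that of DNA replication from −1.85 to −1.46.

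Histone genes used in S phase fell further, in 31 of 31 genes (median −2.08), all at 2-fold without overlap, against 6.39% of all genes. H4c4, a histone H4 gene, had 955 and 919.6 CPM in the untreated cells, 1096 and 1092 CPM in the NC cells and 176 to 324 CPM (median 233) in the tumors (log2 fold change −2.08, SE 0.131, adjusted p = 5.23e-10). The linker histone gene H1f4 had 565 to 752 CPM in culture and 117 to 207 CPM (median 144) in the tumors (log2 fold change −2.13, adjusted p = 2.71e-10). The 10 largest decreases among genes called at 2-fold, with a mean of at least 3 on the log2 CPM scale, included 6 core histone genes (Hist1h2bp, H2bc18, H2bc14, H4f16, H2bc9 and Hist1h2bq), with log2 fold changes from −2.5 for Hist1h2bp to −2.34 for Hist1h2bq. These genes have near-identical copies between which reads may be split, so the value of a single copy is uncertain. Their RNA lacks a poly-A tail, and the sample labels describe poly-A capture where the study's methods describe removal of ribosomal RNA. The 2 non-polyadenylated RNAs tested, Rmrp and Terc, were both called lower in tumors and summed to 2220 to 6528 CPM in the 4 cell libraries and 3320 to 4115 CPM (median 3845) in the 12 tumors, with the untreated cells at 6257 and 6528 CPM and the NC cells at 2220 and 5267 CPM. The part of RNA selection in the histone values was not tested. Also among the 10, Cep55, which acts at abscission, had 128 to 177 CPM in culture and 17.8 to 37.9 CPM in the tumors (log2 fold change −2.42, adjusted p = 2.51e-10). Hirip3, a partner of a histone chaperone, had 82.7 to 175 CPM in culture and 15.1 to 30.6 CPM in the tumors (log2 fold change −2.36, adjusted p = 8.25e-09).

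Promoters of the cell cycle genes are shown because their members moved together. In 250 bases before to 50 after the RefSeq start (GRCm38.p6), the cell cycle homology element TTTGAA, searched on both strands, was found for 19 of 27 mitosis genes with a promoter in the table (70.4%), against 20.2% of 27025 genes. The CCAAT box, letters CCAAT on both strands, was found for 22 of 27 mitosis genes (81.5%) and 29 of 31 histone genes (93.5%), against 41.1% of all genes. The E2F motif TTTCCCGC was found for 6 of 32 replication genes (18.8%), against 1.24%. A match is a description and does not show that a factor binds there. In the promoters of Plk1 (chr7:122159185-122159484, plus strand) and Cdk1 (chr10:69352863-69353162, minus strand), capitals mark TTTGAA or its complement, and in that of H4c4 (chr13:23581318-23581617, plus strand) they mark CCAAT or its complement.
Plk1: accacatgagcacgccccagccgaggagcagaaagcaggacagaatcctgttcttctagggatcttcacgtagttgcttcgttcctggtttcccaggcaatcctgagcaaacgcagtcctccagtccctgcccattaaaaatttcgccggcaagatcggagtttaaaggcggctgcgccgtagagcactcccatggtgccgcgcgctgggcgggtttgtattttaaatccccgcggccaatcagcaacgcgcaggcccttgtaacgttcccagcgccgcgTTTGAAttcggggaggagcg
Cdk1: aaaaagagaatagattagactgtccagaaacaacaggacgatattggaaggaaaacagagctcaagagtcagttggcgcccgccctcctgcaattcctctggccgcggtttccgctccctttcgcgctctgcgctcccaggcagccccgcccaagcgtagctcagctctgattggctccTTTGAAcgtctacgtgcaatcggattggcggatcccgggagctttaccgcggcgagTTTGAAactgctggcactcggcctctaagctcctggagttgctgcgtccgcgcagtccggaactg
H4c4: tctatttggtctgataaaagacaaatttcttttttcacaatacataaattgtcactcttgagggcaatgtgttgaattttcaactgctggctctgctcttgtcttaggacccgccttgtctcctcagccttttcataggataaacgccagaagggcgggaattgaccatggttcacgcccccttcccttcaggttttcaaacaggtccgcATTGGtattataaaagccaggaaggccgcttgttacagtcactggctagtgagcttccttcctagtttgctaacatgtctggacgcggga

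The largest of these decreases was that of Akr1b3, aldose reductase, which turns glucose to sorbitol (ENSMUSG00000001642.18, chromosome 6, 34302434 to 34317478). It had 2501 and 2488 CPM in the untreated cells, 2077 and 1999 CPM in the NC cells and 145 to 246 CPM (median 181) in the tumors (log2 fold change −3.6, SE 0.117, adjusted p = 8.64e-13), without overlap. Ccn2, a matrix-associated growth factor gene that responds to cell spreading, fell next, from 391 and 372 CPM in the untreated cells and 262 and 285 CPM in the NC cells to 27.1 to 81.3 CPM (median 50.3) in the tumors (log2 fold change −2.68, SE 0.193, adjusted p = 2.13e-09).

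Most genes of the Myc network were lower in tumors, but Myc itself was not among them. Myc had 777 and 757 CPM in the untreated cells, 615 and 788 CPM in the NC cells and 373 to 1614 CPM (median 1378) in the tumors (log2 fold change 0.81, SE 0.259, adjusted p = 0.0102, or −0.048 under the epithelial scaling). The EV tumors had 1605, 1614 and 1301 CPM, the sgNC tumors 1455, 373 and 1338 CPM and the vehicle tumors 1419, 779, 1505, 1211, 1457 and 1338 CPM, so that sgNC tumor 2 was below all cells and vehicle tumor 2 inside their range. The call was lost with experiment as a random block and when either cell group was left out. How reads of the human transgene were assigned was not tested. Mxd1, a repressor that competes with MYC for its partner, had 13.5 to 15.3 CPM in culture and 15.3 to 66.8 CPM (median 26.7) in the tumors (log2 fold change 1.08, adjusted p = 0.00164), highest in sgNC tumor 2, and its call was lost under the epithelial scaling (0.12). Of 40 tested genes of the Myc network and ribosome biogenesis 33 were lower and 3 higher (median −0.86), the latter being Myc, Mxd1 and the related repressor gene Mnt. Nolc1, a nucleolar scaffold, had 459 and 442 CPM in the untreated cells, 612 and 741 CPM in the NC cells and 133 to 239 CPM (median 186) in the tumors (log2 fold change −1.6, SE 0.124, adjusted p = 5.20e-09). Nucleolin (Ncl) had 2011 and 2015 CPM in the untreated cells, 2579 and 3123 CPM in the NC cells and 856 to 1753 CPM (median 1246) in the tumors (log2 fold change −0.98, SE 0.138, adjusted p = 6.31e-06). Nop56, of the box C/D particles that modify ribosomal RNA, had 417 to 691 CPM in culture and 182 to 275 CPM in the tumors (log2 fold change −1.2, adjusted p = 8.95e-08). Nucleophosmin (Npm1) had 1902 to 2290 CPM in culture and 899.9 to 1626 CPM in the tumors (log2 fold change −0.76, adjusted p = 4.96e-06). The cyclin D kinase gene Cdk4 had 464 to 494 CPM in culture and 202 to 256 CPM in the tumors (log2 fold change −1.02, adjusted p = 1.87e-09). All of these but Myc and Mxd1 were lower in every tumor than in any cell library. Of 75 ribosomal protein genes 25 were lower, 3 higher and 47 not called, against 30.0% of all genes lower and 41.0% higher, with a median of −0.1 that was 0.19 on log2(TPM + 1).

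Sterol genes were lower for the most part, with 17 of 24 tested genes lower and 1 higher (median −0.61), against 30.0% and 41.0% of all genes. In fatty acid synthesis 7 of 14 tested genes were lower and 1 higher, beside the same shares of all genes. The list median of −0.2 turned to 0.095 on log2(TPM + 1). The desaturase gene Scd2 had 2831 and 2792 CPM in the untreated cells, 2064 and 2028 CPM in the NC cells and 669 to 1457 CPM (median 989) in the tumors (log2 fold change −1.21, SE 0.168, adjusted p = 5.35e-06). Thrsp, a lipogenic protein gene of fat and liver, had 0 CPM in all 4 cell libraries and 0.85 to 5.43 CPM (median 2.31) in the tumors (at least 60.0-fold higher, adjusted p = 1.74e-06).

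Of 36 genes on a joint list of hypoxia and glycolysis 17 were higher and 9 lower, against 41.0% and 30.0% of all genes, so that neither count stood far from that of all genes. The median of 0.42 was 0.26 without vehicle tumor 5, and turned to −0.45 under the epithelial scaling and to −0.045 and −0.072 for the sgNC tumors alone with untreated and NC cells. Car9, the carbonic anhydrase induced by HIF1, had 2.42 and 2.0 CPM in the untreated cells, 1.74 and 1.29 CPM in the NC cells and 4.25 to 21.8 CPM (median 6.29) in the tumors (log2 fold change 2.5, SE 0.551, adjusted p = 6.02e-04). Vehicle tumors 1, 5, 2 and 6 had 21.8, 21.2, 18.6 and 15.5 CPM, above every other tumor. Egln3, a hydroxylase that marks HIF for decay, had 0 CPM in all 4 cell libraries and 1.51 to 6.67 CPM (median 3.5) in the tumors (at least 87.5-fold higher, adjusted p = 9.85e-08). The lactate exporter gene Slc16a3 had 0 to 0.214 CPM in culture and 3.68 to 10.8 CPM (median 7.28) in the tumors (log2 fold change 5.95, SE 0.439, adjusted p = 2.81e-09). Vegfa, the growth factor of endothelium, had 73.1 and 70.5 CPM in the untreated cells, 111 and 133 CPM in the NC cells and 122 to 390.2 CPM (median 189) in the tumors (log2 fold change 1.06, SE 0.249, adjusted p = 0.00103), highest in vehicle tumor 5 and with sgNC tumor 2 inside the range of the cells. Its call was lost without the untreated cells and under the epithelial scaling. Ero1l, an oxidase of the endoplasmic reticulum, had 207 to 249 CPM in culture and 171 to 1064 CPM in the tumors (log2 fold change 1.77, adjusted p = 1.12e-04). The call of Ero1l was lost for the sgNC tumors with either cell group alone. Ddit4, an inhibitor of mTORC1, had 24.3 to 33.3 CPM in culture and 55.2 to 137 CPM in the tumors (log2 fold change 1.88, adjusted p = 2.48e-07). By contrast the glycolytic enzyme gene Tpi1 had 832 to 919 CPM in culture and 206 to 537 CPM in the tumors (log2 fold change −1.12, adjusted p = 2.86e-06). Pgam1, of the same pathway, had 1759 to 1986 CPM in culture and 711 to 1242 CPM in the tumors (log2 fold change −1.03, adjusted p = 6.50e-07). Both were lower in every tumor than in any cell library.

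The hypoxia response element ACGTG, on either strand, was found in the same window for 24 of 35 of these genes (68.6%), against 21.8% of all genes. It is shown in capitals in the promoters of Car9 (chr4:43506776-43507075, plus strand) and Egln3 (chr12:54203825-54204124, minus strand), the former with low counts in culture and the latter with none.
Car9: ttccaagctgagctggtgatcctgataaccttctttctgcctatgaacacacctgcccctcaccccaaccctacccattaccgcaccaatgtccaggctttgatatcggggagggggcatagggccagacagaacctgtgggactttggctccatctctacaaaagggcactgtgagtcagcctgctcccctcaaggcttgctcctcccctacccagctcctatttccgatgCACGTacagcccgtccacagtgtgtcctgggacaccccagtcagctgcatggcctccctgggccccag
Egln3: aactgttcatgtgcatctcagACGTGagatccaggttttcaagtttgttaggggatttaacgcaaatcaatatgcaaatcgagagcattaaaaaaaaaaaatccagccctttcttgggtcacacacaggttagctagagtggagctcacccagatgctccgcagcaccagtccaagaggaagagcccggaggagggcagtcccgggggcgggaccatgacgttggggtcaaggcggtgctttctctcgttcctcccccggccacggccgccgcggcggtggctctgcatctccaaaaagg

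Nuclear genes of oxidative phosphorylation were lower in 32 of 50 cases and higher in 3, against 30.0% and 41.0% of all genes. The list median of −0.3 was 0.0040 on log2(TPM + 1). Of 13 genes encoded by mitochondrial DNA 3 were higher and 3 lower, both below the shares of all genes (median 0.049, or −0.83 under the epithelial scaling). The complex I gene mt-Nd1 was one of those lower, with 1801 to 2315 CPM in culture and 1088 to 1545 CPM in the tumors (log2 fold change −0.69, adjusted p = 3.45e-06). Of 33 tested genes of the amino acid response 14 were lower and 11 higher, against 30.0% and 41.0% of all genes (median −0.06, or 0.25 on log2(TPM + 1) and −0.028 without EV tumor 1). The transcription factor gene Atf4 had 267 to 310 CPM in culture and 119 to 192 CPM in the tumors (log2 fold change −0.96, adjusted p = 5.38e-07). Psat1, Phgdh and Asns were among several enzymes on this list that were lower, while others were higher or not called. Psat1, of serine synthesis, had 751 and 764 CPM in the untreated cells, 707 and 656 CPM in the NC cells and 139.6 to 322 CPM (median 193) in the tumors (log2 fold change −1.79, SE 0.159, adjusted p = 2.34e-08). Phgdh, the first enzyme of that route, had 474 to 529 CPM in culture and 157 to 264 CPM in the tumors (log2 fold change −1.3, adjusted p = 2.79e-09). Asparagine synthetase (Asns) had 227 to 373 CPM in culture and 82.1 to 182 CPM in the tumors (log2 fold change −1.17, adjusted p = 2.17e-06). No tumor reached the level of any cell library for Psat1, Phgdh and Asns. Ddit3, the stress factor CHOP downstream of ATF4, went the other way, with 2.2 and 2.14 CPM in the untreated cells, 3.53 and 3.53 CPM in the NC cells and 6.42 to 21 CPM (median 13.1) in the tumors (log2 fold change 2.17, SE 0.273, adjusted p = 1.68e-06). Genes of the unfolded protein response were higher in 14 of 19 cases and lower in 1, against 41.0% and 30.0% of all genes. The list median was 0.38, or −0.5 under the epithelial scaling. Herpud1, of protein quality control in the endoplasmic reticulum, had 75.2 and 72.8 CPM in the untreated cells, 46.6 and 48.6 CPM in the NC cells and 80.8 to 335 CPM (median 198) in the tumors (log2 fold change 1.7, SE 0.301, adjusted p = 7.20e-05). The chaperone partner gene Dnajb9 had 6.61 to 13.1 CPM in culture and 20.1 to 32.2 CPM (median 24.3) in the tumors (log2 fold change 1.36, adjusted p = 3.65e-06). The call of Dnajb9 was lost under the epithelial scaling (0.41), and that of Herpud1 for the sgNC tumors with untreated cells alone. A smaller change was that of the transcription factor gene Xbp1 (log2 fold change 0.97, adjusted p = 5.21e-04, or −0.0083 under the epithelial scaling). That of the chaperone Hspa5 (log2 fold change 0.22, adjusted p = 0.0492, or −0.66 under that scaling) was not called under 27 of 39 alternatives.

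**Figure D4:**
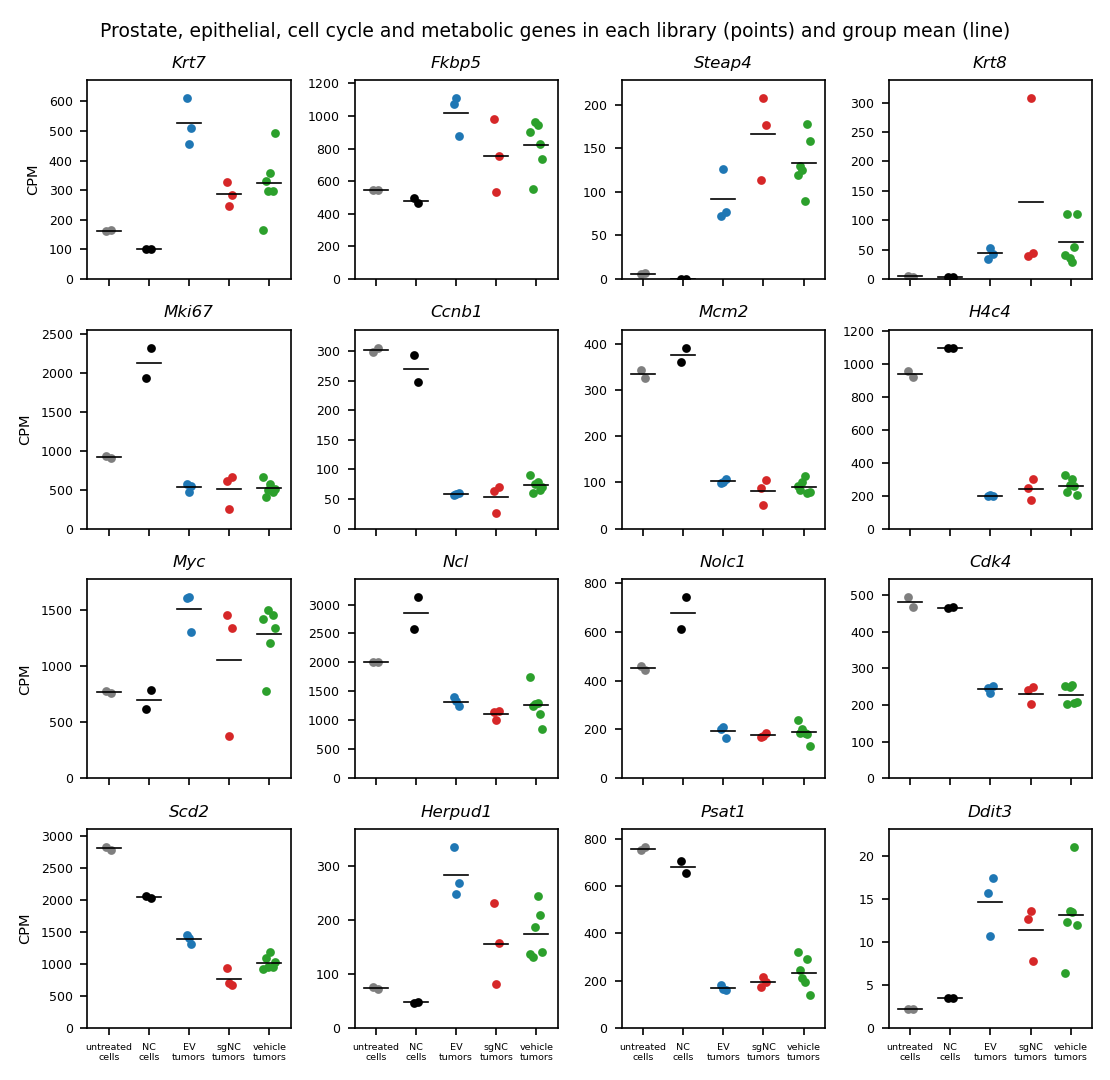
CPM (y axis) of 16 genes of prostate and epithelial identity, cell cycle, Myc and ribosome production, lipids and stress, with 1 point per library and a line at each group's mean. Ccnb1, Mcm2, H4c4, Cdk4, Scd2 and Psat1 are lower in every tumor than in any cell library, Steap4, Krt8, Herpud1 and Ddit3 are higher in every tumor, and Myc overlaps, lowest in sgNC tumor 2 (373 CPM). The increases of Fkbp5 and Myc turn to −0.13 and −0.048 under the epithelial scaling.

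Immediate early genes switch on within minutes of a stimulus or of tissue handling. They were higher in 15 of 22 cases and lower in 3, against 41.0% and 30.0% of all genes. The list median was 0.82, or −0.048 under the epithelial scaling. Fos had 0.955 and 1.57 CPM in the untreated cells, 0.34 and 0.418 CPM in the NC cells and 11.6 to 42.8 CPM (median 29.2) in the tumors (log2 fold change 5.21, SE 0.419, adjusted p = 7.64e-09). Egr1 had 1.69 and 1.93 CPM in the untreated cells, 2.12 and 3.15 CPM in the NC cells and 8.85 to 73.5 CPM (median 16.6) in the tumors (log2 fold change 3.32, SE 0.521, adjusted p = 2.04e-05), highest in sgNC tumor 3. Btg2, an antiproliferative gene of this group, rose from 8.21 to 11.1 CPM to 56.4 to 148 CPM (median 109) (log2 fold change 3.47, SE 0.24, adjusted p = 1.39e-09). Jun had 54.5 to 65.5 CPM in culture and 121 to 201 CPM in the tumors (log2 fold change 1.34, adjusted p = 4.43e-08). Fosb, which like Fos pairs with Jun, had 0.808 to 1.29 CPM in culture and 2.61 to 11.8 CPM in the tumors (log2 fold change 2.87, adjusted p = 1.19e-05). Klf2, also a gene of endothelium and T cells, had 1.54 to 2.39 CPM in culture and 8.66 to 27.8 CPM in the tumors (log2 fold change 3.21, adjusted p = 1.02e-07). None of these genes overlapped between tumors and cells. Fosl1, a partner of Jun in invasive and mesenchymal-type cells, fell. It had 95 and 95.7 CPM in the untreated cells, 194 and 260.5 CPM in the NC cells and 4.24 to 72.4 CPM (median 27.8) in the tumors (log2 fold change −2.34, SE 0.484, adjusted p = 3.30e-04), with the EV tumors at 5.25, 12.6 and 4.24 CPM. The time between removal of tumors and lysis is not in the labels, and its part was not tested.

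NF-kB and inflammatory genes were higher in 14 of 23 tested cases and lower in 5, against 41.0% and 30.0% of all genes. The list median was 0.8, or −0.027 under the epithelial scaling. Ccl2, the chemokine that draws monocytes, had 0 CPM in all 4 cell libraries and 1.32 to 4.43 CPM (median 2.54) in the tumors (at least 68.7-fold higher, adjusted p = 9.16e-08). Icam1, an adhesion molecule for leukocytes, had 0.429 to 1.25 CPM in culture and 1.86 to 10.2 CPM in the tumors (log2 fold change 2.92, adjusted p = 1.11e-05). Relb, a subunit of NF-kB, had 0.608 to 2.28 CPM in culture and 2.91 to 11.3 CPM in the tumors (log2 fold change 1.97, adjusted p = 3.22e-04). Both were higher at 2-fold without overlap. The inhibitor gene Nfkbia changed less, from 24.1 to 35.3 CPM to 37.4 to 63.9 CPM (log2 fold change 0.64, adjusted p = 3.02e-04, or −0.28 under the epithelial scaling). Ptgs2, the inducible cyclooxygenase, was lower in tumors, with 171 and 179.9 CPM in the untreated cells, 291 and 303 CPM in the NC cells and 50.3 to 231 CPM (median 78) in the tumors (log2 fold change −1.36, SE 0.288, adjusted p = 4.24e-04). sgNC tumor 2 overlapped the cells at 231 CPM. The neutrophil chemokine gene Cxcl1 fell from 3.23 to 5.65 CPM to 0.888 to 3.1 CPM (log2 fold change −1.2, adjusted p = 2.25e-04). For the sgNC tumors with NC cells alone the calls of Cxcl1 and Ptgs2 were lost, and with untreated cells alone those of Ptgs2 and Relb.

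Interferon-induced genes were higher in nearly all cases, 38 of 42, with 2 lower and 2 not called (median 3.81). At 2-fold without overlap 36 were higher, against 18.3% of all genes. Their sum was 168 to 199 CPM in the 4 cell libraries and 308 to 663 CPM (median 482) in the 12 tumors. Isg15, a ubiquitin-like modifier, had 3.52 and 2.57 CPM in the untreated cells, 1.87 and 2.24 CPM in the NC cells and 7.18 to 10.7 CPM (median 9.09) in the tumors (log2 fold change 1.82, SE 0.168, adjusted p = 3.80e-08). The transcription factor gene Irf7 had 0.367 and 0 CPM in the untreated cells, 0 and 0.114 CPM in the NC cells and 2.95 to 14.4 CPM (median 8.41) in the tumors (log2 fold change 6.27, SE 0.632, adjusted p = 1.11e-07). Irf1 had 29.7 and 28.2 CPM in the untreated cells, 27.7 and 28.4 CPM in the NC cells and 35.2 to 75.3 CPM (median 47.5) in the tumors (log2 fold change 0.78, SE 0.146, adjusted p = 1.27e-04, or −0.13 under the epithelial scaling). The tumors did not overlap the cells for either of them. Iigp1, a GTPase induced by interferon gamma, had 0 CPM in all 4 cell libraries and 2.49 to 30.8 CPM (median 6.16) in the tumors (at least 236-fold higher, adjusted p = 3.71e-05), highest in EV tumor 2. Oas2, an antiviral enzyme gene, had 1 count in culture and 3.06 to 13.8 CPM (median 9.29) in the tumors (adjusted p = 2.81e-09). Mx2, an antiviral GTPase gene, had 0 CPM in all 4 cell libraries and 1.98 to 7.71 CPM (median 5.86) in the tumors (at least 137-fold higher, adjusted p = 1.48e-07). Usp18, a protease that removes ISG15, had 3 counts in culture and 2.26 to 7.11 CPM (median 4.53) in the tumors (adjusted p = 2.47e-09). These antiviral genes were at or near 0 in culture and above it in all tumors. Rsad2 (viperin) had 0.143 to 0.367 CPM in culture and 2.09 to 8.79 CPM in the tumors (log2 fold change 4.49, adjusted p = 1.59e-07). The guanylate-binding protein gene Gbp2 had 0 to 0.147 CPM in culture and 3.21 to 20.5 CPM in the tumors (log2 fold change 7.03, adjusted p = 1.14e-06). Cxcl10, a chemokine of T cells, had 0 to 0.128 CPM in culture and 0.258 to 2.66 CPM in the tumors (adjusted p = 6.25e-05). Ifit2 was an exception, lower in tumors at 8.85 to 19.7 CPM than in culture at 43.8 to 48.6 CPM (log2 fold change −1.65, SE 0.14, adjusted p = 1.50e-08), without overlap. Vehicle tumor 1 was the lowest tumor for Irf7, Oas2, Mx2, Rsad2, Gbp2, Usp18 and Ifit2, as it was for Ptprc, Laptm5, Lyz2, Adgre1, Csf1r, Cdh5 and Kdr, and the part of leukocyte RNA in the interferon genes was not tested.

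The interferon-stimulated response element, taken as 2 copies of GAAA separated by any 2 bases on either strand, was found in the promoter window of 21 of 30 interferon genes with an entry (70%), against 3.99% of all genes, and of 5 of 18 genes of MHC class I and the immunoproteasome (27.8%). Capitals mark it in the promoters of Isg15 (chr4:156200769-156201068, minus strand), where 3 overlapping matches form a single run, and of Rsad2 (chr12:26456403-26456702, minus strand) and Gbp2 (chr3:142620413-142620712, plus strand).
Isg15: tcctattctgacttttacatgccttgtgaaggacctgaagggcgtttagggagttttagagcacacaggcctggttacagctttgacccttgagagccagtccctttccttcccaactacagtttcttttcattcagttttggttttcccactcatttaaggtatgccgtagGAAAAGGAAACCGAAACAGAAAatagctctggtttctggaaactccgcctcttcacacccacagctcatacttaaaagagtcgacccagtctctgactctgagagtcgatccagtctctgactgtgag
Rsad2: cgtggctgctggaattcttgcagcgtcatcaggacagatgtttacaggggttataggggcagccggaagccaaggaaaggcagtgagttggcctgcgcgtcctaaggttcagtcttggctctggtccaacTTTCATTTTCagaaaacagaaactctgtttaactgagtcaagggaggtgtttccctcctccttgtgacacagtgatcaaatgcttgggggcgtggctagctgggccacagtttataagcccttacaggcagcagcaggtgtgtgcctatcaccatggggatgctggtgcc
Gbp2: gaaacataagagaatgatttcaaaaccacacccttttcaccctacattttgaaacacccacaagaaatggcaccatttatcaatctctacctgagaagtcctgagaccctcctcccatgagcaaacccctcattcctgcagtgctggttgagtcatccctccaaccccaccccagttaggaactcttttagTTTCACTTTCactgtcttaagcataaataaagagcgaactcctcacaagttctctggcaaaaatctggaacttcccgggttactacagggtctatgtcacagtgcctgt

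Antigen presentation genes were higher as well, 12 of 13 tested, and 0 lower (median 1.78). B2m, the light chain of MHC class I, had 115 and 117 CPM in the untreated cells, 67.6 and 77.3 CPM in the NC cells and 357 to 1187 CPM (median 812) in the tumors (log2 fold change 3.1, SE 0.298, adjusted p = 6.39e-08). Vehicle tumor 1 was lowest at 357 CPM and sgNC tumor 2 next at 496 CPM. The peptide transporter gene Tap1 had 1.1 and 1.14 CPM in the untreated cells, 0.51 and 0.912 CPM in the NC cells and 4.07 to 15.3 CPM (median 6.75) in the tumors (log2 fold change 3.1, SE 0.367, adjusted p = 7.93e-07). The immunoproteasome gene Psmb8 had 1.03 and 0.643 CPM in the untreated cells, 0 and 0.076 CPM in the NC cells and 7.29 to 12.6 CPM (median 9.46) in the tumors (log2 fold change 4.76, SE 0.498, adjusted p = 1.71e-07). Nlrc5, the transactivator of class I genes, had 1 count in culture and 1.88 to 17.2 CPM (median 8.03) in the tumors (adjusted p = 1.03e-06). The class I heavy chain genes on the list were not analysed here. On the list of ubiquitin-activating enzymes and interferon receptor signalling, 5 of 18 were higher and 8 lower, against 41.0% and 30.0% of all genes. The list median was −0.11, or 0.21 on log2(TPM + 1). Uba1, which activates ubiquitin, was lower in every tumor than in culture, with 520.3 and 509.5 CPM in the untreated cells, 615 and 611 CPM in the NC cells and 272 to 359 CPM (median 306) in the tumors (log2 fold change −0.84, SE 0.0744, adjusted p = 2.24e-08). Uba7, which activates ISG15, had 1.84 and 1.36 CPM in the untreated cells, 0.255 and 0.228 CPM in the NC cells and 6.19 to 26.1 CPM (median 11.2) in the tumors (log2 fold change 3.94, SE 0.486, adjusted p = 1.26e-06).

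**Figure D5:**
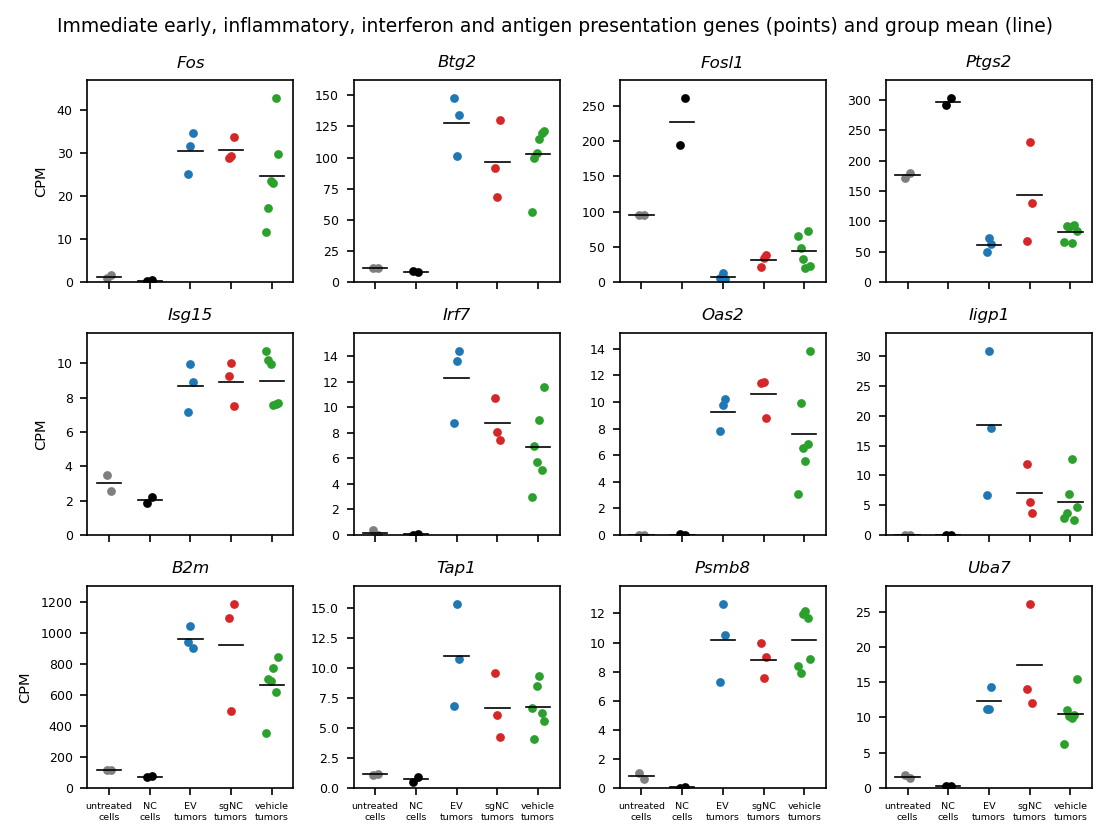
CPM (y axis) of 12 immediate early, inflammatory, interferon and antigen presentation genes, with 1 point per library and a line at each group's mean. Fosl1 and Ptgs2 are highest in the NC cells, and the other genes are higher in every tumor than in any cell library, with B2m lowest in vehicle tumor 1 (357 CPM) and Iigp1 highest in EV tumor 2 (30.8 CPM).

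Of 21 p53 targets and related genes 10 were higher and 8 lower, against 41.0% and 30.0% of all genes. The median of 0.15 ran from 0.06 without vehicle tumor 5 to 0.26 without untreated replicate 2, was at most 0.097 without any 1 vehicle tumor, and was −0.76 under the epithelial scaling. The cell cycle inhibitor gene Cdkn1a had 15.8 to 19.4 CPM in culture and 14.6 to 47.4 CPM (median 37) in the tumors (log2 fold change 0.99, SE 0.208, adjusted p = 3.66e-04), and only sgNC tumor 2, at 14.6 CPM, was not above the cells. Its change was 0.14 and not called under the epithelial scaling, and the call was lost for the sgNC tumors with either cell group alone. Trp53inp1, a p53-induced gene, had 2.94 and 3.93 CPM in the untreated cells, 0.765 and 0.646 CPM in the NC cells and 13.8 to 50.3 CPM (median 30.7) in the tumors (log2 fold change 4.05, SE 0.458, adjusted p = 4.45e-07). The kinase gene Plk2 had 0 CPM in all 4 cell libraries and 5.9 to 15.3 CPM (median 10.5) in the tumors (at least 274-fold higher, adjusted p = 3.93e-10). Trp53 itself was lower (108 to 126 CPM in culture, 57 to 82.7 CPM in tumors; log2 fold change −0.82, adjusted p = 8.70e-08). Of 22 genes of the NRF2 response 12 were lower and 5 higher (median −0.42), against 30.0% and 41.0% of all genes. Nfe2l2, which encodes NRF2, had 56.2 to 93.5 CPM in culture and 28.4 to 40.9 CPM in the tumors (log2 fold change −1.08, adjusted p = 1.27e-07). Thioredoxin reductase (Txnrd1) had 212 to 269 CPM in culture and 86.1 to 149 CPM in the tumors (log2 fold change −1.11, adjusted p = 3.16e-08). Heme oxygenase (Hmox1), also a gene of macrophages, had 10.9 to 13 CPM in culture and 19.2 to 48.2 CPM in the tumors (log2 fold change 1.27, adjusted p = 3.17e-05). The call of Hmox1 was lost under the epithelial scaling (0.41).

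Cells and tumors with like histories were then set side by side, in a fit with a mean for each of the 5 groups. The sgNC tumors against the NC cells, both controls of the sgUba1 experiments, gave 6148 genes higher (36.1%) and 4593 lower (26.9%). The vehicle tumors against the untreated cells, neither with a vector named, gave 5704 higher (33.5%) and 4376 lower (25.7%). These contrasts share no library, but they share 1 estimate of the spread. Of 17046 genes tested, 8508 were called in the same direction in both, against 35 in opposite directions. With only the groups compared in the fit, 8130 genes were called for the sgNC contrast, against 10741, and 10202 for the vehicle contrast, against 10080. The medians of the lists, given first for the sgNC and then for the vehicle contrast, were 8.9 and 8.58 for blood endothelium, 5.08 and 5.61 for macrophages and 8.25 and 6.8 for fibroblasts and matrix. They were −1.99 and −1.48 for mitosis, −1.79 and −1.59 for DNA replication and −2.15 and −1.85 for histones. For the interferon response they were 4.77 and 3.16, and for epithelial genes 1.59 and 1.24. Of the 42 interferon genes 39 were higher in the sgNC contrast and 38 in the vehicle contrast, and all 24 blood endothelial genes were higher in both. Hypoxia and glycolysis genes had medians of 0.015 and 0.55, with 13 and 17 genes higher.

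The difference between the 2 contrasts was called for 154 genes, 75 with a larger value on the sgNC side (0.440%) and 79 with a smaller one (0.463%). An unadjusted p below 0.05 was reached by 2507 genes. The count was 15 and 21 without an untreated cell library, 17 without NC replicate 2, and 328 without vehicle tumor 6. It was 83, 78 and 102 without vehicle tumors 2, 3 and 4, and between 106 and 178 without any other library. In each of the 10 genes named below the 2 cell groups did not overlap. Steap4 had 5.07 and 6.5 CPM in the untreated cells and 0.255 and 0.266 CPM in the NC cells, against 114, 207 and 177 CPM in the sgNC tumors and 88.8 to 178 CPM in the vehicle tumors (difference 4.76, SE 0.619, adjusted p = 0.00251). Xdh, xanthine dehydrogenase, had 3.16 and 2.57 CPM and 0.128 and 0.19 CPM in the cell groups and 13.3 to 46.6 CPM in the tumors (difference 4.27, SE 0.909, adjusted p = 0.0419). The interferon-induced gene Parp14 had 4.77 and 5.36 CPM and 1.4 and 1.06 CPM in the cell groups (difference 2.62, SE 0.459, adjusted p = 0.0208). For the metalloprotease gene Adamts12 the same groups had 4.77 and 3.07 CPM and 0.722 and 0.57 CPM (difference 2.35, SE 0.439, adjusted p = 0.0249). Nt5e, the ecto-nucleotidase CD73, differed among cells and among tumors, at 24.9 and 25.4 CPM in untreated and 2.29 and 1.56 CPM in NC cells, 26.5, 33.6 and 26.5 CPM in the sgNC tumors and 70.8 to 93.7 CPM in the vehicle tumors (difference 2.17, SE 0.226, adjusted p = 4.41e-04).

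In the other direction vimentin (Vim), the intermediate filament of mesenchymal cells, had 159.5 and 151 CPM in the untreated and 684 and 742 CPM in the NC cells, against 77.5 to 209.9 CPM (median 134) in the 12 tumors (difference −1.78, SE 0.388, adjusted p = 0.0466). Its log2 fold change of −1.68 over all libraries was not called without the NC cells, and turned to 0.074 for the sgNC tumors against the untreated cells. Vipr1, a receptor of vasoactive intestinal peptide, had 3.08 and 2.5 CPM and 11.6 and 12 CPM in the cells and 51.5 to 96.8 CPM in the tumors (difference −2.05, SE 0.292, adjusted p = 0.00453). The receptor gene Notch1 had 3.23 and 4.36 CPM and 12 and 12.8 CPM in the cells and 15.7 to 27.1 CPM in the tumors (difference −1.64, SE 0.308, adjusted p = 0.0249). Both were higher in every tumor than in culture, by less where the NC cells were the reference. Kif20b, a mitotic kinesin gene, was lower in every tumor, with 73.3 and 77.7 CPM and 166 and 196 CPM in the cells and 27.5 to 51.7 CPM in the tumors (difference −1.32, SE 0.294, adjusted p = 0.0496). The transcription factor gene Arid3a had 10.2 and 11.4 CPM and 18.7 and 20.5 CPM in the cells (difference −1.36, SE 0.275, adjusted p = 0.0348). It was not called over all libraries (log2 fold change 0.21, adjusted p = 0.355), and its sign turned with the cell group used.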

How the data were processed

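RNA was measured in bulk by sequencing of KAPA RNA HyperPrep libraries. The authors deposited estimated counts per gene, unscaled, and TPM values, scaled for depth and length, both from kallisto on mm10 according to the submitters' processing notes, with versions not given in the sources used here. The labels describe poly-A capture and the study's methods removal of ribosomal RNA, so which RNAs were kept is not settled. Samples were grouped by their labels and the study's methods, and the other 35 libraries of the series were not used here. Every value column was matched to a sample.

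Estimated counts were rounded, genes were filtered with filterByExpr, and libraries were scaled with TMM. The 12 tumors were compared with the 4 cell libraries by edgeR 4.0.16 (quasi-likelihood, R 4.3.3) with no covariate, and the 2 matched contrasts and their difference in a fit of 5 group means. P-values measure the spread between these samples, which may be technical. Fold changes of genes at 0 counts in culture were set against a floor of 3 counts over the 4 cell libraries. The self-test on simulated counts was run before the fits. Alternatives used DESeq2 1.42.0, limma 3.58.1, other scalings, filters and models, TPM with pseudocounts of 1 and 0.1, and left out libraries, groups and experiments. Figures were drawn with matplotlib 3.10.9 (Python 3.11.15). Gene coordinates came from the GENCODE annotation of GRCm38 and promoters from RefSeq (GRCm38.p6).

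The members and lists were chosen with earlier results of these data known. Named genes were the first 4 of each list, the members of a list with the largest and smallest called change, the 10 genes with the highest TPM in tumors among those under 0.1 CPM in every cell library, the 10 largest increases and decreases called at 2-fold with a mean of at least 3 on the log2 CPM scale (unnamed gene models left out), and the 5 largest differences each way between the matched contrasts. Some genes of the lists were left to the counts, and some are not reported here. Fn1, Sparc, Timp1, Twist2, Apoe, Arg1, Krt7, Krt15, Cldn3, Trp63, Calml3, H1f4, Cdk4, Mnt, Egln3, Slc16a3, Ero1l, Ddit4, Pgam1, Phgdh, Btg2, Fosb, Klf2, Icam1, Relb, Irf7, Oas2, Mx2, Usp18, Rsad2, Gbp2, Psmb8, Trp53inp1, Nfe2l2, Ifng and Pbsn are list members named after their values were seen.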

Additional observations from a re-analysis of the deposited data

Results flagged for a closer look

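In 41 summed levels tested over the 6 vehicle tumors, 3 had a tumor whose gap to the next was large against the group's whole range (Dixon's test), where chance alone gives about 1 in 20. The erythroid sum was 1423 CPM in vehicle tumor 5 and 96.2 to 296.9 CPM in the others. The skeletal muscle sum was 725.7 CPM in vehicle tumor 6 and 225.2 to 338.8 CPM in the others. The immediate early sum was 1675 CPM in vehicle tumor 5 and 1140 to 1324 CPM in the others.

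The sgNC tumors minus NC cells and the vehicle tumors minus untreated cells differed for 154 genes in the edgeR test of the difference itself. On the log2 scale the sgNC value was larger by 4.76 for Steap4, 4.27 for Xdh, 2.62 for Parp14, 2.35 for Adamts12 and 2.17 for Nt5e. The difference was −2.05 for Vipr1, −1.78 for Vim, −1.64 for Notch1, −1.36 for Arid3a and −1.32 for Kif20b.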

How the results depend on the processing

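Of 162 named genes 159 were called, and 119 of these kept direction and call under every alternative run, up to 39 for a gene. The other 40 lost the call under at least 1 alternative, and 12 of the called genes reversed under at least 1. The cause of the changes that follow was not tested.

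Scaling by the epithelial list gave 2757 genes higher and 9670 lower, and at 2-fold 1701 and 5730. List medians turned to −0.40 for prostate and androgen response, −0.45 for hypoxia and glycolysis, −0.50 for the unfolded protein response, −0.048 for immediate early, −0.027 for NF-kB and −0.76 for p53. The log2 fold changes turned to −0.17 for Pdgfra, −0.10 for Fn1, −0.26 for Sparc, −0.13 for Fkbp5, −0.11 for Cldn3, −0.048 for Myc, −0.66 for Hspa5, −0.0083 for Xbp1, −0.28 for Nfkbia, −0.61 for Arid3a and −0.13 for Irf1. With at least 10 counts in every library of either side the keratinocyte median was −0.018.

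On log2(TPM + 1) 3052 genes were lower, 470 of them at 2-fold, and on log2(TPM + 0.1) 3050 and 524. In these units the median was 0.095 and 0.096 for fatty acid synthesis, 0.0040 in both for oxidative phosphorylation, and 0.21 in both for the list of ubiquitin-activating enzymes and interferon receptor signalling. The latter was 0.035 without the NC cells and 0.056 for sgNC tumors with untreated cells alone.

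Arid3a was −0.17 without the untreated cells, −0.57 for sgNC tumors with NC cells alone and −0.089 for vehicle tumors with NC cells alone. Fbln1 was 0.099 without the NC cells and 0.20 for vehicle tumors with untreated cells alone. For the sgNC tumors with untreated cells alone 7688 genes were called, 4081 of them higher, the hypoxia median was −0.045 and Vim was 0.074. For the sgNC tumors with NC cells alone 4325 genes were higher and the hypoxia median was −0.072. For the EV tumors with NC cells alone 1641 genes were lower at 2-fold.

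With Bonferroni adjustment 4538 genes were called, 2266 higher and 2272 lower, and 1949 were higher at 2-fold. Against a fold of 1.5 (glmTreat) 6180 were called, 4149 higher and 2031 lower. With the experiment as a random block 11026 were called. The difference between the matched contrasts was called for 689 genes with DESeq2 and for 15 to 328 when 1 library was left out. With genes at 0 counts in culture the median share of TPM was 0.493%.

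The labels share replicate numbers across groups. Deviations from the group mean had correlations of −0.0568 to 0.102 for libraries with the same number (12 pairs) and −0.108 to 0.108 for different numbers (36 pairs). Each cell group held 2 libraries, whose deviations mirror each other, so each value occurs with both signs. The check therefore cannot decide whether the numbers pair the samples. A replicate block gave 11074 genes called (6396 higher and 4678 lower), 10251 for the sgNC contrast, 8668 for the vehicle contrast and 53 for their difference. Many lymphocyte markers were below the filter on low counts, and total counts were fewest in the EV and sgNC tumors. The part of depth in this was not tested.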
